A study of Homo sapiens with 8 samples.

Results

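The genes described here encode the E2F transcription factors and their DP partners in RD18 cells. The members were the 10 symbols E2F1 to E2F8, TFDP1 and TFDP2, and all 10 were found among the 22808 symbols of the count table. They were chosen by name, with earlier results of these data known. They comprised 3 activators (E2F1, E2F2 and E2F3), 3 repressors (E2F4, E2F5 and E2F6), 2 atypical factors (E2F7 and E2F8) and 2 DP genes. RD18 is a human cell line of fusion-negative rhabdomyosarcoma, a muscle-lineage tumour that lacks the PAX-FOXO1 fusion gene. The vehicle group received the transfection reagent lipofectamine, and the treated group received miR-449a and miR-340-5p together, with 4 libraries of polyadenylated RNA per group taken at 60 h. All libraries came from this single line. The vehicle cells received no control RNA, so the effect of the microRNA pair and that of transfected small RNA cannot be told apart. Whether replicates were separate cultures is not labelled. The p-values therefore reflect variation among these 8 libraries, which may be technical.

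E2F proteins bind promoters of genes needed for DNA replication. E2F1 to E2F6 bind as heterodimers with a DP protein, whereas E2F7 and E2F8 carry a duplicated DNA-binding domain and bind without DP. The retinoblastoma protein RB1 restrains the activators until cyclin-dependent kinases phosphorylate it, E2F4 and E2F5 work with the related pocket proteins p107 and p130, and E2F6 represses through a polycomb complex without a pocket protein. E2F7 and E2F8 are themselves made late in the E2F programme and shut it down again.

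The transfected strands are shown because their seeds, bases 2 to 8 in capitals, set which words were searched in the members' 3′ UTRs. Sequences are from RefSeq (GRCh38.p14), and the seeds differ from each other.
miR-449a: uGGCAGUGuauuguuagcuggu
miR-340-5p: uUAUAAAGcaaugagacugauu

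The 7-base word that pairs with the miR-449a seed is CACTGCC, and CTTTATA pairs with that of miR-340-5p. Both were searched on the transcript strand in the longest annotated 3′ UTR of each member (GENCODE 29, GRCh38). A word for miR-449a was found in 3 of 10 members (E2F3, E2F5 and TFDP2), where 19.4% of 13724 genes with a 3′ UTR held one. A word for miR-340-5p was found in 3 of 10 (E2F5, E2F7 and TFDP2), where 18.5% of all genes held one. Each window printed here holds 30 bases, with the word in capitals. The words lie in 3′ UTRs, at chr6:20493160-20493166 for E2F3 (plus strand), chr12:77022476-77022482, chr12:77021869-77021875 and chr12:77021279-77021285 for E2F7 (minus strand), and chr3:141951754-141951760 and chr3:141951038-141951044 for TFDP2 (minus strand).
E2F3, miR-449a word: taatttgtaaaCACTGCCagaatactttct
E2F7, miR-340-5p word: gaataaagtagCTTTATAttaactacagga
E2F7, next miR-340-5p word: tcttaatgtggCTTTATAtgtaaaaataat
E2F7, last miR-340-5p word: aaaatattaagCTTTATAaaatagcaataa
TFDP2, miR-449a word: tactttgccagCACTGCCtttgccagcatc
TFDP2, miR-340-5p word: ctgtggtgcctCTTTATAgcctcaccacca

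Long 3′ UTRs hold such words more often. The 3′ UTR of TFDP2 has 8085 bases, and among 465 genes with 3′ UTRs of similar length 48.6% held the miR-449a word and 55.9% the miR-340-5p word. For E2F3 (3285 bases) 27.8% of such genes held the miR-449a word, and for E2F7 (2891 bases) 25.7% held the miR-340-5p word. These shares count genes with any number of the word. The share with 3, the number in E2F7, was not computed. E2F1, E2F2, E2F4, E2F6, E2F8 and TFDP1 had neither 7-base word in the 3′ UTR searched. Which 3′ UTR isoforms RD18 cells use was not measured, and a word is a match of letters, not a measured site.

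**Figure D1:**
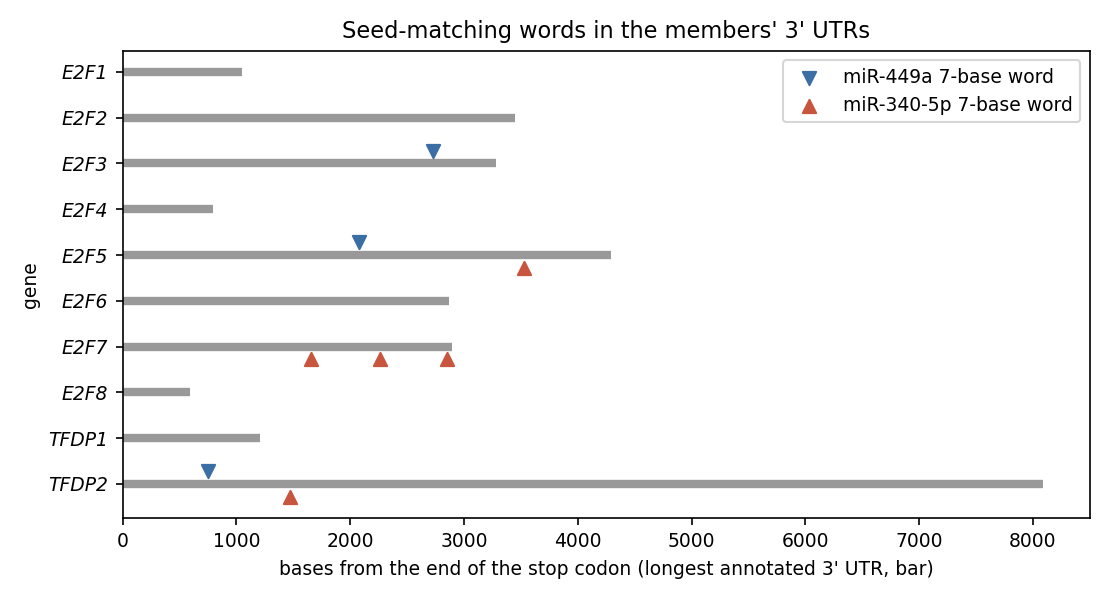
Position of the 7-base seed-matching words in the longest annotated 3′ UTR of each member, in bases from the end of the stop codon (x axis), with 1 grey bar per gene (y axis). E2F7 has 3 words for miR-340-5p, E2F3 has 1 for miR-449a, E2F5 and TFDP2 have 1 for each, and the other 6 genes have neither.

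The promoter windows of the activators are shown because these genes are known targets of E2F factors, E2F1 above all. Of 8 members with a RefSeq promoter (250 bases before to 50 after a start, GRCh38.p14), 4 held at least 1 of the E2F words TTTCGCGC, TTTGGCGC, TTTCCCGC or TTTGCCGC on either strand, where 3.32% of 35116 promoter windows did. They were E2F1, with 2 matches (TTTGCCGC and TTTGGCGC), and E2F2, E2F3 and TFDP1, with 1 each. E2F5 and E2F8 had no window among the RefSeq promoters used and were not searched. Members were counted per gene over all their windows, multiple for E2F3 and TFDP2, whereas the share is per window. A further word, TTTCGCGG, was noticed afterwards as the rarest of the 5 words of 8 bases, counting a word and its reverse complement as 1, that all 3 activator genes shared. It stood in 0.416% of promoter windows and, of the 8 members searched, in these 3. In E2F1 it overlaps the E2F word TTTGCCGC, found there on the opposite strand. It is in capitals here, at chr20:33686395-33686424 for E2F1 (minus strand), chr1:23531263-23531292 for E2F2 (minus strand) and chr6:20401838-20401867 for E2F3 (plus strand).
E2F1: tcTTTCGCGGcaaaaaggatttggcgcgta
E2F2: aaTTTCGCGGcacgacgtttggcgctaaaa
E2F3: agTTTCGCGGgaggaccttggcgcgtaaac

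The E2F7 window held none of the 4 E2F words, which says only that these letters are not in those 300 bases. The words TTTGAA or TTTAAA, the core of the cell cycle homology region, were found in windows of E2F3 and TFDP2, where 24.0% of all windows held either. Both genes had multiple windows, and the share is per window. No binding was measured in these samples.

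Libraries held between 2567737 and 5569342 counts, and treated replicates 3 and 4 had 2842165 and 2913944, about the lowest depth with vehicle replicate 1. Mitochondrially encoded genes took 18.1% to 23.3% of counts. Levels are in CPM, the reads of a gene relative to the TMM-scaled total of its library over the genes kept by a filter on low counts. Of 8 listed muscle genes, 6 passed the filter on low counts and all 6 fell, where 34.0% of all tested genes were called lower. MYOG, myogenin, fell 13.8-fold, from 10.4 ± 1.89 to 0.646 ± 0.372 CPM (SD, n = 4), and MYOD1, the myogenic master regulator, fell 1.88-fold. MYF6 held 1 read in vehicle and 2 in treated libraries. The 7 muscle genes in the table, led by CHRNA1 at 814 CPM in vehicle, summed to 1229 to 1282 CPM in vehicle and 859 to 894 CPM in treated libraries. MYF5 was not analysed here. The 4 leukocyte markers summed to at most 3.07 CPM in any library, and the 2 of 4 endothelial markers in the table to at most 1.29 CPM. The 4 epithelial markers summed to 38.3 to 49.0 CPM in vehicle and 69.2 to 80.9 CPM in treated libraries, mostly KRT18, with EPCAM and CDH1 at 1.38 and 0.174 CPM on average in treated cells and 0.105 and 0 CPM in vehicle. The part of the muscle and epithelial shifts in the results was not tested. In bulk RNA, fewer expressing cells and less RNA per cell cannot be told apart.

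Of the 10 members, 7 were lower in treated cells, none was higher and 3 did not pass (edgeR quasi-likelihood test, Benjamini-Hochberg adjusted p under 0.05 over 12366 tested genes). All 10 passed the filter on low counts. Across all tested genes 67.3% were called, 33.4% as higher and 34.0% as lower, so the share of members called was close to that of all tested genes. A fall of at least 4-fold was called for 4 of 10 members (E2F1, E2F2, E2F7 and E2F8) and for 3.49% of all tested genes. Earlier results of these data were known when the members were chosen, so these counts are not independent evidence. For 7 members, all lower, the vehicle and treated ranges were apart, as they were for 58.9% of all tested genes, 29.2% as higher and 29.7% as lower. The median log2 fold change was -0.94 over the members and -0.000671 over all tested genes. Scaling by library size alone raised log2 fold changes by a median of 0.138, so falls are relative to the typical tested gene.

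**Figure D2:**
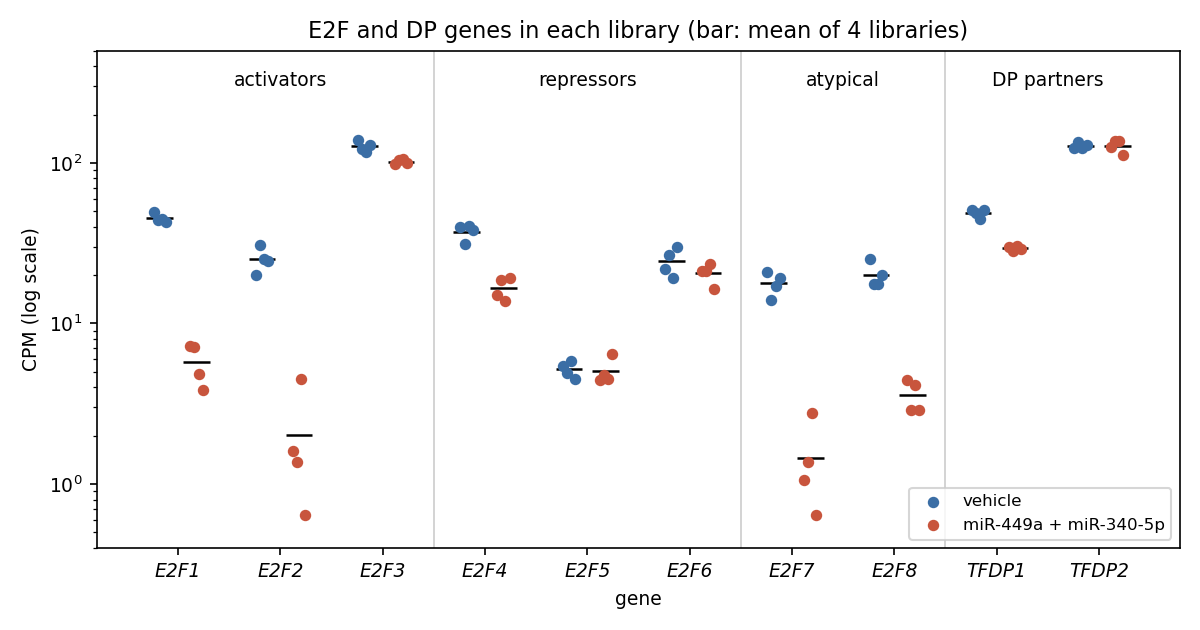
CPM of each member in each library (y axis, log scale; 1 point per library, bar at the mean of 4), vehicle in blue and miR-449a with miR-340-5p in red. The treated points of E2F1, E2F2, E2F7 and E2F8 lie far below the vehicle points, while those of E2F5, E2F6 and TFDP2 overlap them.

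Among the activators, E2F1 and E2F2 fell steeply and E2F3 fell slightly. E2F1, the activator most tied to S-phase entry and to apoptosis (chromosome 20, 33675683 to 33686404, minus strand), measured 49.8, 44.0, 44.9 and 43.0 CPM in the vehicle libraries and 7.28, 7.16, 4.82 and 3.86 CPM in the treated libraries. The groups were far apart, and the shallower treated replicates 3 and 4 were the lowest. E2F1 fell 7.32-fold, from 45.4 ± 3.02 to 5.78 ± 1.71 CPM (SD, n = 4; log2 fold change -2.87, SE 0.16, adjusted p = 1.70e-23).

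E2F2, an activator that overlaps with E2F1 in function (chromosome 1, 23506430 to 23531220, minus strand), measured 20.1, 30.8, 25.4 and 24.4 CPM in vehicle and 1.598, 1.36, 4.48 and 0.644 CPM in treated libraries. Treated replicate 3 stood highest in its group and replicate 4 lowest, the latter on 2 reads. E2F2 fell 13.6-fold (log2 fold change -3.76, SE 0.26, adjusted p = 6.56e-19). Without treated replicate 3 the log2 fold change was -4.26. The fall of E2F7, described further on, was within the error of that of E2F2, and their order turned without vehicle replicate 2 and without treated replicate 2. Of the tested genes, 0.696% had a lower log2 fold change than E2F2, and 1.54% had a lower one than E2F1.

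E2F3, an activator transcribed from alternative promoters (chromosome 6, 20401906 to 20493715, plus strand), measured 139, 123, 116 and 129 CPM in vehicle and 98.2, 104, 105 and 99.8 CPM in treated libraries. Every treated library was below every vehicle library, by a narrow gap. The fall was 1.24-fold (log2 fold change -0.31, SE 0.08, adjusted p = 0.000318), and it failed the threshold when only library size was scaled (log2 fold change -0.17, adjusted p = 0.0513). The table gives 1 value per gene and does not separate the E2F3 isoforms. Its pseudogene E2F3P2 held 0 reads in vehicle and 5 in treated libraries, against 1839 and 1777 for E2F3.

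The activators also diverged when each library was its own reference. Reads of E2F1 per read of E2F3 were 0.357, 0.359, 0.386 and 0.333 in vehicle and 0.0741, 0.0691, 0.0457 and 0.0387 in treated libraries. Those of E2F2 per read of E2F3 were 0.201 ± 0.0454 in vehicle and 0.0196 ± 0.0158 in treated cells (SD, n = 4). Neither ratio overlapped between groups, and neither depends on scaling. Not every ratio formed between members separated the groups. Reads of E2F4 per read of E2F6 overlapped, at 1.59 ± 0.445 in vehicle and 0.840 ± 0.254 in treated libraries. No test was run on ratios between members.

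**Figure D3:**
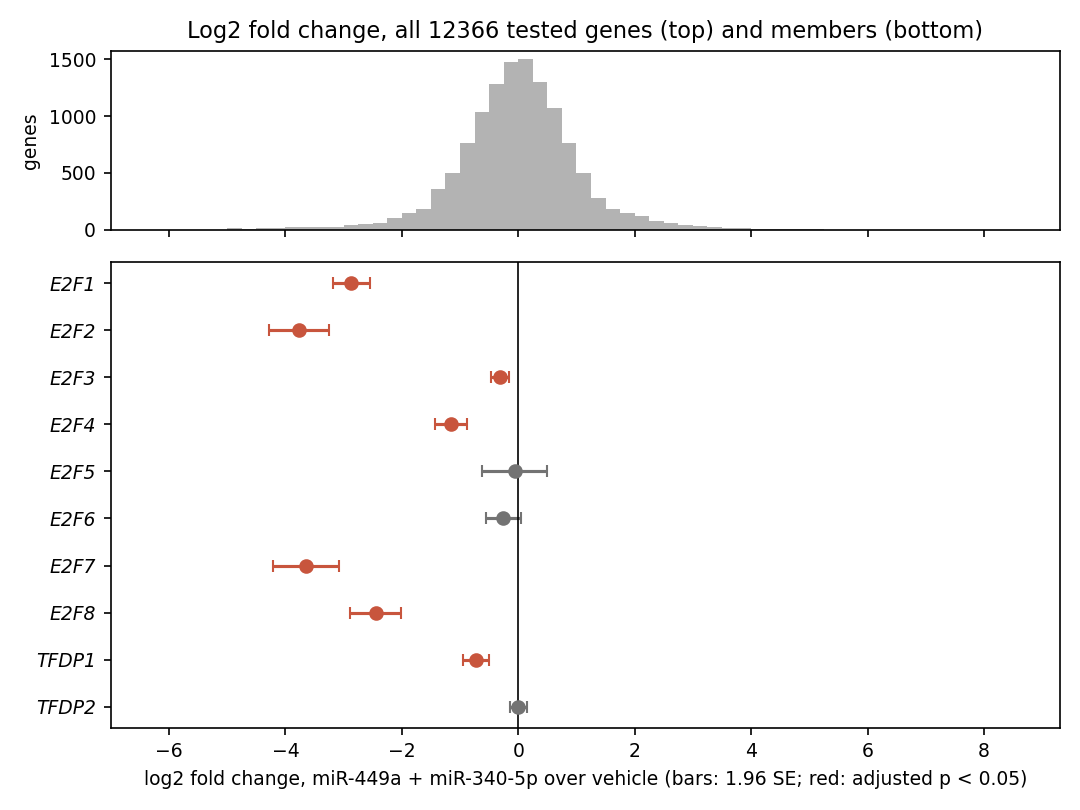
Log2 fold change of treated over vehicle (x axis) for all 12366 tested genes (top, number of genes) and for the 10 members (bottom, bars of 95% intervals, red where called). E2F2 and E2F7 lie below -3, E2F1 and E2F8 between -3 and -2, and E2F5, E2F6 and TFDP2 have bars that span 0.

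Among the repressors only E2F4 passed the test. E2F4, the main E2F of quiescent cells and of the DREAM repressor complex (chromosome 16, 67192169 to 67198918, plus strand), measured 39.7, 31.1, 40.4 and 38.2 CPM in vehicle and 15.1, 18.6, 13.8 and 19.3 CPM in treated libraries. The groups were well separated. E2F4 fell 2.22-fold, from 37.4 ± 4.29 to 16.7 ± 2.68 CPM (SD, n = 4; log2 fold change -1.15, SE 0.14, adjusted p = 1.23e-10).

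E2F6, the repressor that works with polycomb proteins (chromosome 2, 11444375 to 11466177, minus strand), measured 21.8, 26.7, 19.3 and 30.1 CPM in vehicle and 21.1, 21.2, 23.4 and 16.4 CPM in treated libraries. The groups overlapped. The log2 fold change was -0.25 (95% interval -0.55 to 0.04, adjusted p = 0.130), and without vehicle replicate 3, the lowest of its group, E2F6 passed as lower (log2 fold change -0.37, adjusted p = 0.0355). Its pseudogene E2F6P4 held 11 and 20 reads, against 361 and 362 for E2F6.

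E2F5, the second pocket-protein-bound repressor, was the least abundant member in vehicle. It measured 5.44, 4.92, 5.84 and 4.52 CPM in vehicle and 4.44, 4.78, 4.48 and 6.44 CPM in treated libraries, on 76 and 86 reads in all. The groups overlapped, and the fold change was known only to within 0.649 to 1.41 times the vehicle level (95% interval, adjusted p = 0.861). Its gene lies on chromosome 8 (85177225 to 85217158, plus strand), and 969 of its exonic bases overlap exons of C8orf59 on the opposite strand, a gene with 752 and 661 reads. The sources used here do not give the strand setting of the counting, so reads in the shared stretch may be misassigned. Its 3′ UTR of 4294 bases holds 1 word for each microRNA, where 33.4% and 36.6% of 3′ UTRs of like length hold the respective word.

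Both atypical factors fell. E2F7 (chromosome 12, 77021247 to 77065580, minus strand), a repressor of E2F targets at the end of S phase, measured 20.9, 14.0, 17.1 and 19.1 CPM in vehicle and 1.07, 1.36, 2.75 and 0.644 CPM in treated libraries. Treated libraries held 24 E2F7 reads in all, so the order among them is not resolved. E2F7 fell 12.5-fold (log2 fold change -3.64, SE 0.29, adjusted p = 3.48e-17).

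E2F8, its close relative on chromosome 11 (19224063 to 19241620, minus strand), measured 25.1, 17.6, 17.5 and 20.1 CPM in vehicle and 4.44, 2.90, 4.13 and 2.90 CPM in treated libraries. The groups were far apart. E2F8 fell 5.45-fold (log2 fold change -2.45, SE 0.23, adjusted p = 1.26e-14). Reads of E2F7 per read of E2F8 were 0.833, 0.794, 0.974 and 0.950 in vehicle and 0.240, 0.471, 0.667 and 0.222 in treated libraries, again without overlap. Of these genes, E2F7 has 3 words for miR-340-5p in its 3′ UTR and E2F8 has no 7-base word in a 3′ UTR of 595 bases. Any link between these words and the falls was not tested.

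Of the DP genes, TFDP1 fell and TFDP2 did not pass. TFDP1, the widely expressed DP partner (chromosome 13, 113584721 to 113641470, plus strand), measured 50.6, 48.9, 44.5 and 51.2 CPM in vehicle and 29.8, 28.3, 30.3 and 29.3 CPM in treated libraries. The treated libraries were tightly grouped below the vehicle libraries. TFDP1 fell 1.66-fold (log2 fold change -0.73, SE 0.11, adjusted p = 8.08e-08).

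TFDP2, the other DP gene (chromosome 3, 141944428 to 142149544, minus strand), measured 125, 136, 124 and 129 CPM in vehicle and 125, 137, 137 and 112 CPM in treated libraries. The treated libraries spanned the vehicle libraries. The log2 fold change was -0.00225 (SE 0.07, adjusted p = 0.981), with a 95% interval of 0.902 to 1.11 times the vehicle level. TFDP2 carries 7-base words for both microRNAs, and whether either microRNA acts on it was not tested. Reads of TFDP1 per read of TFDP2 were 0.381 ± 0.0240 in vehicle and 0.232 ± 0.0235 in treated libraries (SD, n = 4), with no overlap between groups and no test.

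To compare levels between genes, CPM was divided by the length of the longest annotated transcript in kilobases. On this scale E2F3 was the highest member in vehicle, at 26.7 ± 2.06 CPM per kilobase (SD, n = 4). TFDP1 (18.4 ± 1.16) and E2F1 (18.1 ± 1.21) followed with overlapping ranges, then E2F4 (14.3 ± 1.64) and TFDP2 (13.01 ± 0.559), which also overlapped. E2F6 (7.09 ± 1.41), E2F8 (5.71 ± 1.01) and E2F2 (4.85 ± 0.850) came next, each overlapping its neighbour, and E2F7 (3.09 ± 0.518) and E2F5 (1.03 ± 0.115) stood apart below them.

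The order differed in treated cells. E2F3 stayed highest at 21.4 ± 0.704 CPM per kilobase (SD, n = 4), followed by TFDP2 (12.97 ± 1.21) and TFDP1 (11.1 ± 0.321), whose ranges overlapped, and by E2F4 (6.38 ± 1.03) and E2F6 (5.95 ± 0.853), which overlapped too. E2F1, overlapping TFDP1 in vehicle, now lay below E2F6, at 2.31 ± 0.683 CPM per kilobase. E2F8 (1.02 ± 0.230) and E2F5 (0.998 ± 0.188) overlapped, as did E2F2 (0.389 ± 0.325) and E2F7 (0.254 ± 0.159) at the bottom. E2F5, the lowest member in vehicle, lay above E2F7 in every treated library. E2F5 also lay above E2F2 in each, but in treated replicate 3 both held 13 reads. There their order rests on the annotated lengths alone and is not resolved.

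Summed over the 8 E2F genes, the level was 80.9 ± 4.35 CPM per kilobase in vehicle and 38.7 ± 1.43 in treated cells (SD, n = 4), 2.09-fold lower. The summed level was 2.06-fold lower for the activators, 1.68-fold for the repressors and 6.91-fold for the atypical factors. These are levels summed over members and carry no test.

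The share of each class in the E2F total does not depend on scaling. The activator share was 61.4%, 63.8%, 61.1% and 59.6% in vehicle and 62.7%, 62.1%, 63.1% and 61.2% in treated libraries, so the groups overlapped. The repressor share was 26.1%, 26.6%, 28.7% and 29.4% in vehicle and 33.5%, 35.3%, 32.7% and 36.2% in treated libraries, higher in every treated library. The atypical share was 12.5%, 9.61%, 10.3% and 10.98% in vehicle and 3.80%, 2.64%, 4.18% and 2.53% in treated libraries, lower in every treated library.

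Within the activators the makeup changed although the class share did not separate the groups. E2F3 made up 53.7% ± 1.92 of the activator level in vehicle and 88.9% ± 2.69 in treated cells (SD, n = 4). Of all 8 E2F genes, it made up 33.0% ± 0.993 in vehicle and 55.3% ± 1.26 in treated cells. These shares rest on annotated lengths, and the isoforms used in RD18 cells were not measured.

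**Figure D4:**
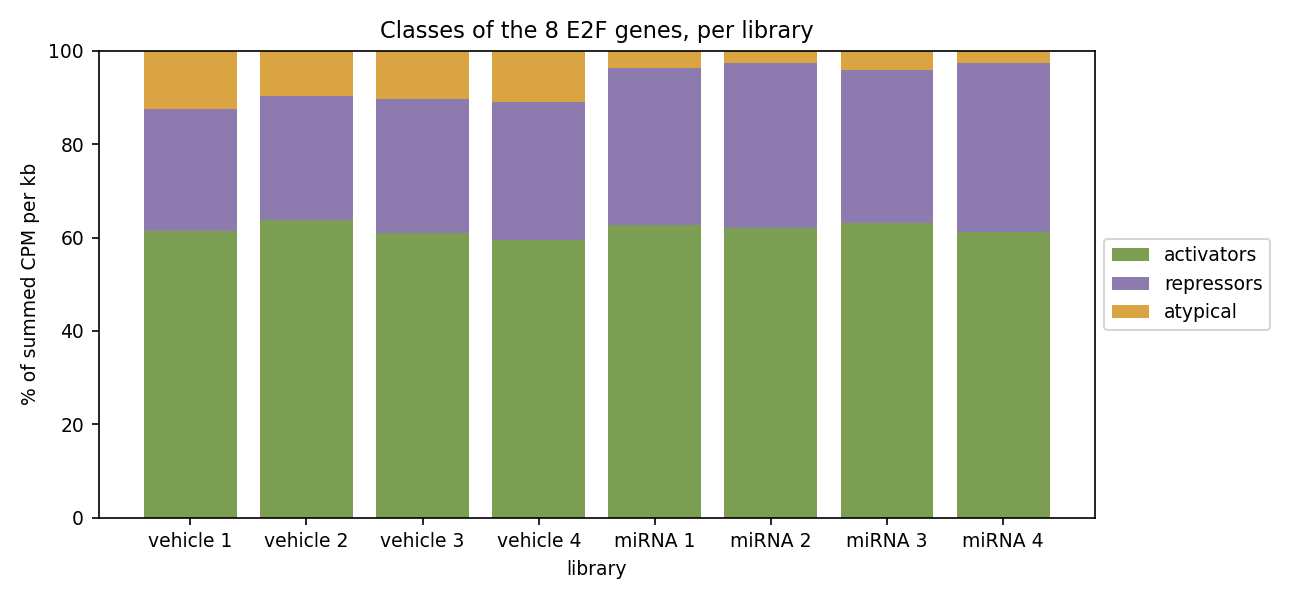
Share of the activators (E2F1 to E2F3), repressors (E2F4 to E2F6) and atypical factors (E2F7 and E2F8) in the summed CPM per kilobase of the 8 E2F genes (y axis, percent), 1 bar per library (miRNA, miR-449a with miR-340-5p). The atypical share is 9.61% to 12.5% in vehicle and 2.53% to 4.18% in treated libraries, and the activator share is near 62% in both groups.

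RNA levels of genes for proteins that hold E2F factors in check follow, beginning with the pocket proteins. Protein levels and phosphorylation were not measured. RB1, the retinoblastoma protein gene, fell from 24.8 ± 3.92 to 15.4 ± 3.28 CPM (SD, n = 4; adjusted p = 0.000216). RBL1, which encodes p107 and is itself an E2F target, fell 3.95-fold, from 34.9 ± 2.93 to 8.88 ± 0.323 CPM. RBL2, which encodes p130, the pocket protein of quiescent cells, rose 1.38-fold, from 17.9 ± 4.43 to 24.6 ± 3.10 CPM (adjusted p = 0.00891), a call lost without vehicle replicate 3 (adjusted p = 0.0989). So 2 of 3 pocket protein genes fell and 1 rose, where 34.0% of all tested genes were called lower and 33.4% higher.

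The MuvB complex joins E2F4 and p130 or p107 in the DREAM repressor, and joins B-MYB and FOXM1 later in the cycle. Of 6 tested genes out of 7, 4 fell, 1 rose and 1 did not pass (median -0.67). The shares over all tested genes were 34.0% lower and 33.4% higher. MYBL2, which encodes B-MYB, fell 27.9-fold, from 179 ± 17.0 to 6.36 ± 2.68 CPM (SD, n = 4), and FOXM1 fell 15.6-fold. The histone chaperone gene RBBP4 fell from 266 ± 11.1 to 168 ± 8.94 CPM, and LIN9 fell 1.58-fold, the latter lost without treated replicate 2 (adjusted p = 0.0591). LIN52 rose 1.79-fold, from 23.1 ± 1.68 to 41.5 ± 3.06 CPM. LIN54 measured 9.57 and 7.27 CPM (adjusted p = 0.173), and LIN37, at 0.240 and 0.552 CPM, was under the count minimum.

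E2F6 acts within the polycomb complex PRC1.6. Of its 12 listed partners, 8 fell, 1 rose and 3 did not pass (median -0.25). Beside them, 67.3% of all tested genes were called, 34.0% as lower and 33.4% as higher. YAF2 fell 2.45-fold, the deacetylase gene HDAC1 2.26-fold, WDR5 2.03-fold and L3MBTL2 1.76-fold. The ubiquitin ligase gene RNF2 rose 1.34-fold (named after its value was seen, as the single rise). With library size alone 5 fell and 3 rose, none rose without vehicle replicate 1, and 2 rose without vehicle replicate 4. Germline genes known to be silenced by E2F6 were very low in both groups. Of the 8 listed, 4 were in the table and none reached the count minimum, with SMC1B at 0.915 and 0.823 CPM and STAG3 at 0.242 and 0.166 CPM.

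Of 15 G1 cyclins, kinases and inhibitors, which set the phosphorylation of the pocket proteins, 11 fell, 1 rose and 3 did not pass (median -0.89). Calls over all tested genes were 34.0% lower and 33.4% higher. CCND3, cyclin D3, fell 5.91-fold, CDK4 5.39-fold and CDK6 3.24-fold. CDKN2C, the CDK4/6 inhibitor p18, fell 5.06-fold. CDKN2B, the inhibitor p15, was the single rise, at 1.83-fold (named after its value was seen), and 2 of these genes were called higher with library size alone and with upper-quartile scaling.

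Genes that act on E2F proteins after they are made were mostly lower. Of 5, 4 fell and 1 did not pass (median -2.69), where 34.0% of all tested genes were called lower. CCNA2, cyclin A2, whose kinase ends activator binding, fell 26.5-fold, and CCNF, cyclin F, of a ligase that degrades activators, fell 8.14-fold. FBXO5, an inhibitor of the anaphase-promoting complex and an E2F target, fell 6.46-fold, and SKP2, of another ligase, 2.13-fold. FZR1, an activator of the anaphase-promoting complex, measured 29.2 and 26.2 CPM (adjusted p = 0.364), and its direction turned with library size alone (log2 fold change 0.00148).

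Of 40 tested S-phase targets of E2F out of 41 listed, all 40 fell, with log2 fold changes from -5.68 to -0.38 and a median of -2.55. Among all tested genes 34.0% were called lower. With library size alone 39 of them were called lower. RRM2, a subunit of ribonucleotide reductase, fell 27.9-fold, TYMS, thymidylate synthase, 29.8-fold, CLSPN, a checkpoint mediator, 14.2-fold and HELLS, a chromatin remodeller, 5.02-fold. The same cell cycle fall had been seen in these libraries before the list was written, so the count is not independent evidence. MYB, at 2.56 and 0.966 CPM, was under the count minimum.

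Most apoptotic targets of E2F1 were higher. Of 8 tested out of 9, 7 rose and 1 fell (median 1.97), where 33.4% of all tested genes were called higher and 34.0% lower. This list too was chosen with earlier results of these data known, so the count is not independent evidence. PMAIP1, which encodes NOXA, rose from 142 ± 4.76 to 509 ± 52.2 CPM (SD, n = 4), and BBC3, which encodes PUMA, rose 4.32-fold. HRK, another pro-apoptotic gene of the BCL2 family, had 1 read over all vehicle libraries and 161 over the treated ones, a ratio of 135 with an exact 95% interval from 23.9 to 5367 that covers counting error only. APAF1, the apoptosome gene, was the single fall, at 1.31-fold (named after its value was seen), and no gene of the list was called lower with library size alone or without vehicle replicate 3. So E2F1 itself and the S-phase targets were lower while 7 of these 8 genes were higher.

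**Figure D5:**
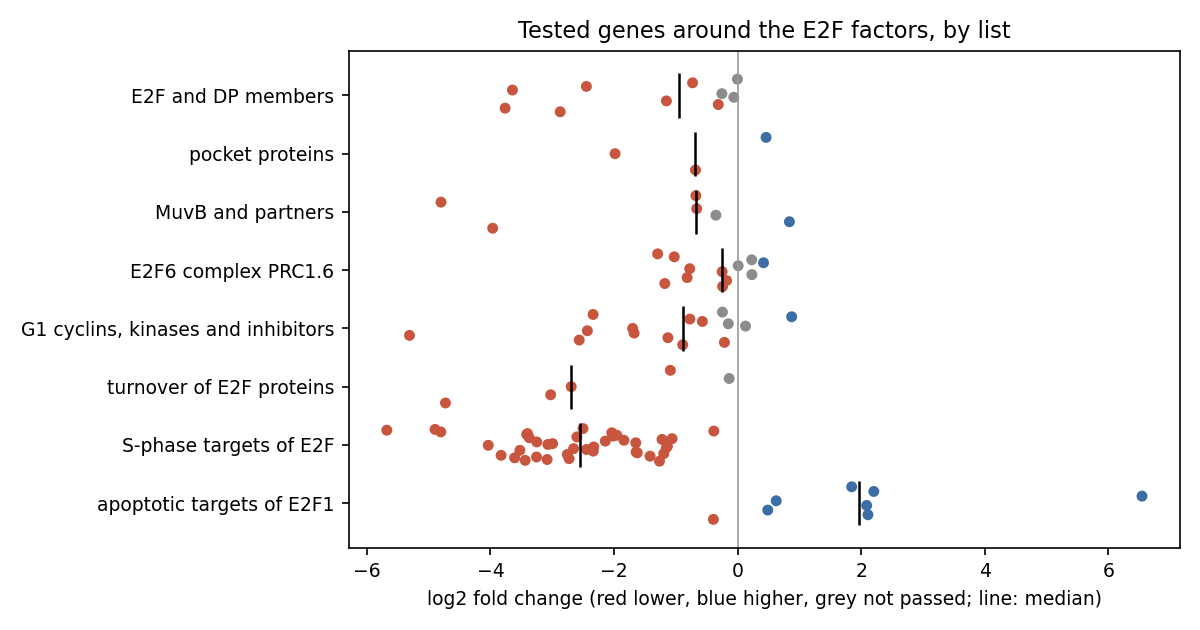
Log2 fold change (x axis) of each tested gene in the lists around the E2F factors (y axis), red where called lower, blue where called higher and grey where not passed, with a line at each list's median. All 40 S-phase targets lie below 0, and 7 of 8 apoptotic targets lie above it.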

How the data were processed

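The authors deposited raw counts of reads for each gene symbol in a single table. The kit was stranded and the instrument a HiSeq4000, per the labels. Tools in the submitters' processing notes, with no role given, are HTSeq 0.5.3p3, TopHat2 2.0.13, DESeq2 and SAMtools 0.1.19.24, on GRCh38. Neither annotation nor strand setting is stated in the sources used here.

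After filterByExpr (minimum count 10, total 15), 12366 of 22808 genes were kept. TMM-scaled counts entered a two-sided robust quasi-likelihood fit in edgeR 4.0.16 (R 4.3.3) on group, adjusted by Benjamini-Hochberg at 0.05. SE is the log2 fold change divided by the root of F. Replicate pairs differed by a chi-square per gene of at least 2.21, so none was merged. In simulated treated-against-vehicle counts over 12363 genes, the test recovered 46 of 67 at 1.5-fold, 61 of 67 at 2-fold and 64 of 66 at 4-fold, with 6 false calls. The simulation changed only these few genes, evenly up and down, and gave every gene the same dispersion. In the measured libraries 67.3% of tested genes were called, so these rates may not hold there.

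The members, lists and words were chosen with earlier results of these data known. Named were all members, all pocket protein, MuvB and turnover genes, and in other lists up to 4 genes with the smallest adjusted p and a mean of at least 1 CPM. 1 gene that this rule names is not reported here. Alternatives were DESeq2 1.42.0, limma-voom (limma 3.58.1), other scalings, filters and threshold, removal of mitochondrially encoded genes, a replicate block and leaving out each library.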

Additional observations from a re-analysis of the deposited data

Results flagged for a closer look

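E2F5 measured 6.44 CPM in treated replicate 4, apart from the nearest of the other 3 treated libraries at 4.78 CPM. HRK measured 0.225 CPM in vehicle replicate 3 on its single read, with 0 reads in the other vehicle libraries. In all, 88 groups of 4 libraries were examined for a library far from the rest, 2 stood out, and chance flags about 1 in 20 groups.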

How the results depend on the processing

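Under 18 alternatives, 165 of 180 member values kept their direction and their side of the threshold. The stricter threshold of 0.01 used the main fit again, so under it no direction could change. E2F1, E2F2, E2F4, E2F7, E2F8 and TFDP1 were called lower under every alternative, with adjusted p of at most 9.71e-06. E2F3 lost its call with library size alone, and E2F6 gained one without vehicle replicate 3. E2F5 and TFDP2, not called in any, changed sign, and the cause was not tested. E2F5 was at 0.0772 with library size alone and from -0.17 to 0.00911 over the left-out libraries. TFDP2 was at 0.00869 with RLE scaling, 0.0480 with upper-quartile scaling, 0.14 with library size alone, 0.0149 without a filter, 0.00847 with DESeq2 and 0.000737 without mitochondrially encoded genes, and from -0.0372 to 0.0531 over the left-out libraries. FZR1 was at 0.00148 with library size alone.

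With the union of exons as length the activator share was 65.5% in vehicle and 65.7% in treated cells, and the repressor share 24.0% and 31.0%. The words of 6 bases for miR-340-5p were in 9 members, where 53.0% of genes held one. The last 6 bases of the E2F words were in all 8 members with a promoter, where 46.6% of windows held one. That count of members is per gene, and TFDP2 also had windows without such a word.

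The labels tie replicate numbers to no shared culture or day, and no pair's correlation of deviations passed 0.1 (0.0135 to 0.0555, all positive), so the samples were not treated as paired. As a hint from the data, 3 of 4 vehicle and 4 of 4 treated libraries correlated best with their own number. The replicate block gave 7 members lower and 0 higher, with 4102 genes higher and 4171 lower over all genes. Depth limits E2F5, and E2F2 and E2F7 in treated libraries, to few reads.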
